A study of Mus musculus with 67 samples.

Results

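The unfolded protein response and the integrated stress response were followed in mouse preimplantation embryos through 10 listed genes, which were taken by symbol from the table of 26414 genes: the stress sensors Ern1, Atf6 and Eif2ak3, the transcription factors Atf4, Xbp1 and Ddit3, the endoplasmic reticulum (ER) proteins Hspa5 and Herpud1, and the feedback inhibitors Trib3 and Ppp1r15a. All 10 were found. RNA was measured in 67 SMART-seq2 libraries, 33 control and 34 light, at 5 stages. There were 7 control and 6 light 2-cell libraries, 6 control and 8 light 4-cell libraries, 4 control and 8 light 8-cell libraries, 13 control and 6 light morulae, and 3 control and 6 light blastocysts. All embryos were of the C57BL/6 strain and came from in vitro fertilization. Light embryos were held under high-intensity light at the 2-cell stage and then cultured on, and control embryos were kept from that light, with the rest of the culture shared by both groups. According to the study's methods each library is a single cell picked from a trypsin-dissociated embryo, while the labels number an embryo for each library, so whether cells of the same embryo entered several libraries, or which fertilization each came from, is not given in the sources used here, and p-values measure only the spread between libraries.

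In a cell under ER stress, unfolded proteins occupy the chaperone BiP (Hspa5), and the sensors IRE1 (Ern1), PERK (Eif2ak3) and ATF6 become active in the ER membrane. IRE1 splices the Xbp1 messenger RNA, PERK phosphorylates the translation factor eIF2α and so favours translation of ATF4, and ATF6 is cut and moves to the nucleus; the integrated stress response shares the eIF2α and ATF4 steps with other kinases. ATF4 and CHOP (Ddit3) induce amino acid genes, the pseudokinase Trib3 and the phosphatase subunit GADD34 (Ppp1r15a), which reverses the phosphorylation. Gene-level values show none of the splicing, phosphorylation or cleavage steps. In the embryo, the passage from the 2-cell to the 4-cell stage is when maternal transcripts are cleared and the embryonic genome takes over.

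Of the 10 genes, only Hspa5 differed between light and control embryos at any stage by the threshold used: at the 2-cell stage it was higher in light libraries by 1.42 on the log2 scale, and the call was lost without 1 of the light libraries. Development moved these genes far more. Ern1, Eif2ak3, Trib3 and Ppp1r15a were at their highest at the 2-cell stage and fell to the 4-cell stage in both conditions (on the CPM scale outside ribosomal RNA the mean of Ern1 in control libraries was as high at the 8-cell stage, 275, as at the 2-cell stage, 271), Atf6 rose over the same step, Xbp1 was near 0 until the morula, and Herpud1 had few reads at every stage.

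Depth bears on all values given here. Total reads per library lay between 836011 and 8551674, but 54.0% to 89.3% of them were on the ribosomal RNA genes CT010467.1 and Gm42418, which left 318177 to 2867034 reads on other genes. The deposited value of a gene, called the normalized value here, is its read number over the size factor of that library, and log2 fold changes refer to log2(normalized value + 1). The ratio of Gm42418 to CT010467.1 reads was 2.34 to 4.03 in control and 1.58 to 1.77 in light libraries at the 2-cell stage, 2.01 to 2.34 and 1.52 to 1.71 at the 8-cell stage, and 2.34 to 4.14 and 1.49 to 1.67 in morulae. It did not overlap between the conditions at these 3 stages, so that light and any difference in library preparation cannot be told apart in them. It did overlap in 4-cell libraries (1.61 to 4.55 and 1.43 to 1.63) and blastocysts (1.42 to 1.45 and 1.29 to 1.75), but through a single library each. Control 4-cell library 3 was at 1.61 and the next control library at 1.80. Control 4-cell libraries 1 and 2 stood apart at 4.55 and 4.35, while libraries 3 to 6 were at 1.61 to 1.98. Libraries 1 and 2 had 10647 and 10883 genes with a read, and libraries 3 to 6 had 12835 to 13370. Light blastocyst library 23 was at 1.75 and the next light library at 1.40. Light and preparation are thus hard to tell apart there too. By median Pearson correlation of log2(normalized value + 1), 16 control libraries were nearer the light libraries of their stage than their own group: 4 of 6 at the 4-cell stage (libraries 2, 3, 4 and 6), 11 of 13 morulae and blastocyst library 3. The gap was widest for control 4-cell library 3 (0.844 against 0.788), and results that rest on it are given without it too. Ern1, Atf6, Atf4, Hspa5 and Ppp1r15a had a read in all 67 libraries, Ddit3 in 64, Eif2ak3 in 60, Trib3 in 59, Xbp1 in 37 and Herpud1 in 20.

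Promoter windows, from 250 bases before to 50 bases after the start site, were available for 9 of the 10 genes (all but Atf6) from RefSeq on GRCm38.p6, and they were searched on both strands for 4 motifs of this pathway. The ER stress response element (ERSE, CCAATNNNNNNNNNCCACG) is bound by ATF6 together with NF-Y, ERSE-II (ATTGGNCCACG) is read by ATF6 and XBP1, TGACGTGG is the core of the unfolded protein response element, and TGATGNAA is the core of the element that ATF4 and C/EBP proteins share. They occurred in 0.119%, 0.0365%, 0.676% and 3.97% of 32851 promoter windows. Of these, 4 windows are shown, those of the 3 listed genes with a match and of Dnajb11, an ER co-chaperone that rose with Hspa5 at the 2-cell stage. Pdia3 and Dnajb9, which also rose at that stage, had 0 matches in their windows. Capitals mark the matched letters.
Hspa5, chr2:34771840-34772139, + strand: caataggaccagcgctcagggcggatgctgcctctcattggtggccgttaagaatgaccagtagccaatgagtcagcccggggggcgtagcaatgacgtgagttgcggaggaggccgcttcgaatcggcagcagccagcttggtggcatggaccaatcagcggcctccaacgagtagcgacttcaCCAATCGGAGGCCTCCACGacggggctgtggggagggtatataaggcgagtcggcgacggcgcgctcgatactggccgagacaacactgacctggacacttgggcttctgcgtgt
Herpud1, chr8:94386179-94386478, + strand: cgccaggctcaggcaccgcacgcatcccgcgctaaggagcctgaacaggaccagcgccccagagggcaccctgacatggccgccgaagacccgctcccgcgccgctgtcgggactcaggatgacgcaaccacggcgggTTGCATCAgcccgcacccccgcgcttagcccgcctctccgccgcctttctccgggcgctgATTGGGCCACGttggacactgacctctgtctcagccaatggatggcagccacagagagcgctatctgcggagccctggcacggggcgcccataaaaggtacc
Trib3, chr2:152344011-152344310, - strand: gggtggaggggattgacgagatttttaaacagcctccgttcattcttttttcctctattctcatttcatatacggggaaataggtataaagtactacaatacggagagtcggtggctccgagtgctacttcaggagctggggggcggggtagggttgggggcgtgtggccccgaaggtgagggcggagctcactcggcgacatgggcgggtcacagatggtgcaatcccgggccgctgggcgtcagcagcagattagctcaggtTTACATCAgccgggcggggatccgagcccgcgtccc
Dnajb11, chr16:22857595-22857894, + strand: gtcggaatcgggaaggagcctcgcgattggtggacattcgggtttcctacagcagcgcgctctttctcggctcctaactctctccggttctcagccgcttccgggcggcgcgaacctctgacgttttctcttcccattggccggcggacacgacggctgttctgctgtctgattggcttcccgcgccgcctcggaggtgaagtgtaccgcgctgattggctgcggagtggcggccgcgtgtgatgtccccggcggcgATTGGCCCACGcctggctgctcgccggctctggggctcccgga
The Hspa5 match was an ERSE at bases -65 to -47 from the start site. Herpud1 held an ERSE-II at bases -52 to -42 and, on the other strand, the ATF4 core at -112 to -105. Trib3 held the ATF4 core on the other strand at 15 to 22, and Dnajb11 an ERSE-II at 8 to 18. The matches did not overlap each other. A match says only that the letters are present. The submitters' processing notes name mm9, so these GRCm38.p6 coordinates describe the genes and not the alignment.

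**Figure D1:**
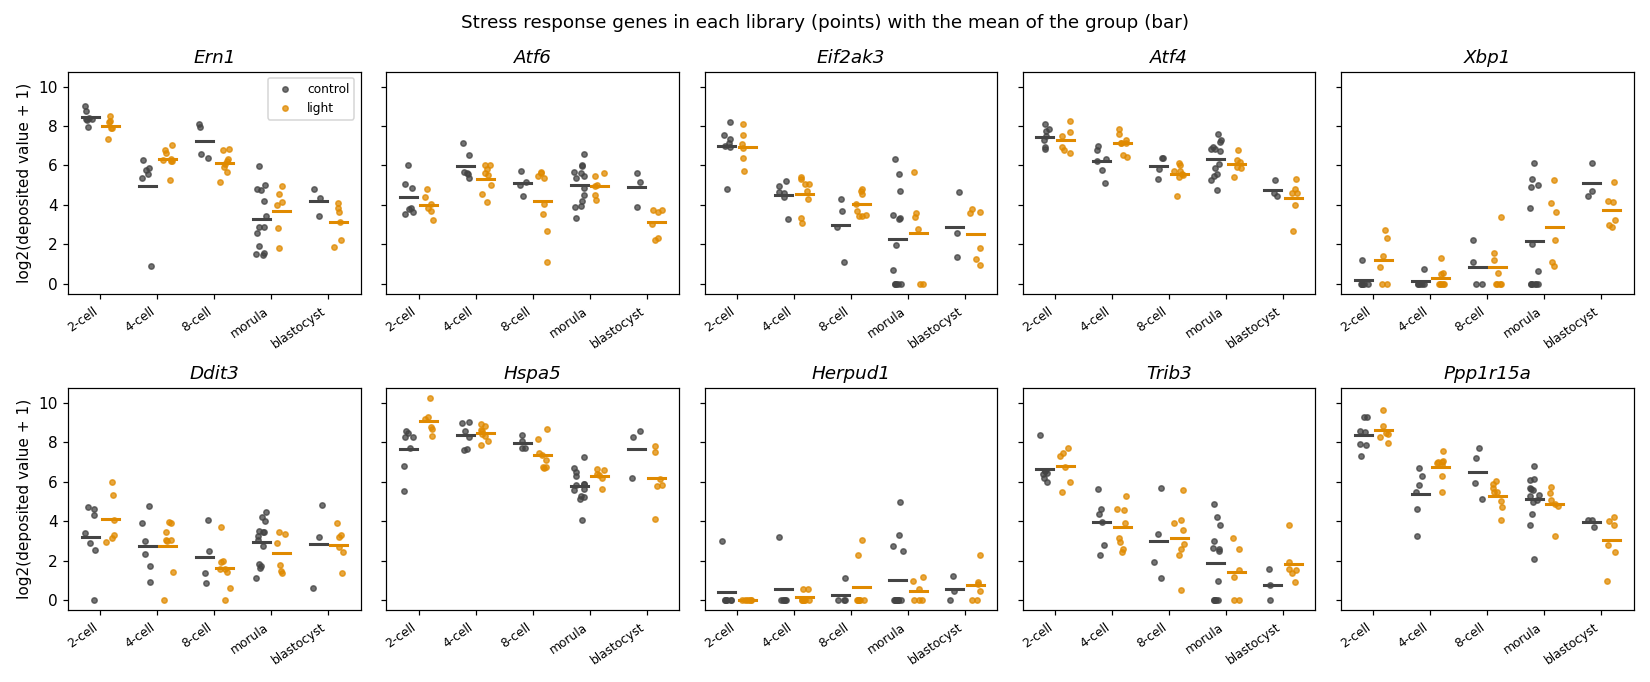
Each panel plots 1 gene: the x axis gives the 5 stages and the y axis log2(normalized value + 1), with 1 point per library (grey control, orange light) and a bar at the group mean. Ern1, Eif2ak3, Trib3 and Ppp1r15a are highest at the 2-cell stage, Xbp1 appears from the morula on, Herpud1 stays near 0, and at the 2-cell stage the light points of Hspa5 sit above most control points.

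The sensors Ern1 and Eif2ak3 fell from the 2-cell to the 4-cell stage in both conditions while the sensor Atf6 rose. In control libraries Ern1, the sensor with the nuclease activity, was at 249, 332 and 515 (lowest, median and highest) at the 2-cell stage and at 0.852, 49.6 and 77.2 at the 4-cell stage. It was at 274, 95.3, 81.3 and 245 in the 4 control 8-cell libraries, 1.75, 6.47 and 60.9 in morulae, and 9.99, 19.5 and 27.0 in the 3 blastocysts. The 2-cell libraries were all above the 4-cell libraries, the 8-cell libraries were all above both the 4-cell libraries and the morulae, and the later stages stayed low. The light libraries went from 159.9, 267 and 367 at the 2-cell stage to 38.1, 78.4 and 130.1 at the 4-cell, 35.2, 70.1 and 112 at the 8-cell, 2.53, 15.8 and 29.9 at the morula and 2.70, 9.55 and 15.9 at the blastocyst stage. They fell in the same first step without overlap, and showed no higher level at the 8-cell stage.

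With limma, the fall of Ern1 from the 2-cell to the 4-cell stage was -3.50 (SE 0.64, adjusted p = 0.000125) on the log2 scale in control and -1.67 (SE 0.31, adjusted p = 7.78e-05) in light libraries. Over this step 6 of 8 listed genes tested passed the threshold (adjusted p under 0.05 and a fold of at least 2) in control and 5 of 9 in light libraries, against 46.1% and 36.5% of all genes tested, so that change as such was common over this step. The groups of 3 listed genes in control and 4 in light libraries did not overlap, as for 20.4% and 13.0% of all genes tested. The median of all genes was itself -0.72 in control and -0.56 in light libraries, and that of the listed genes -1.87 and -1.39. From the 8-cell stage to the morula Ern1 fell by a log2 change of -3.94 (SE 0.78, adjusted p = 0.000864) in control and -2.41 (SE 0.45, adjusted p = 0.000541) in light libraries, where 2 of 10 listed genes tested were called in each condition against 14.3% and 11.8% of all genes, and the 2 did not overlap in either condition, as for 5.02% and 3.57% of all genes. Its higher level at the control 8-cell stage did not pass (4-cell to 8-cell 2.30 (SE 0.79, adjusted p = 0.0794)) although the groups did not overlap, as for 6.79% of all genes tested. It passed with median ratio scaling of the reads (3.07, adjusted p = 0.0329) and with edgeR (2.60, adjusted p = 0.0284). Over that step 0 of 8 listed genes tested were called by limma, 1 had an unadjusted p under 0.05, and 1 was called by edgeR and by DESeq2, against 6.31% of all genes tested by limma, 1.39% by edgeR and 4.74% by DESeq2.

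Eif2ak3, the kinase PERK, was at 26.9, 142 and 289.6 in control and 51.0, 127 and 273 in light 2-cell libraries. At the 4-cell stage it was at 8.88, 23.7 and 36.6 in control and 7.34, 29.1 and 41.6 in light libraries. Its median stayed lower afterwards, though single morulae reached 80.3 in control and 49.7 in light libraries, above all 4-cell libraries of their condition, and 5 of 13 control and 2 of 6 light morulae had no read for it, where a count of 0 allows a normalized value of up to 3.16 and 3.79. Its fall to the 4-cell stage was -2.47 (SE 0.52, adjusted p = 0.0006) in control and -2.42 (SE 0.45, adjusted p = 0.000106) in light libraries, and the light groups did not overlap. The control groups overlapped because of control 2-cell library 9, at 26.9, while the other libraries of its group were at 119.7 or more. Reads of Eif2ak3 may include those of the overlapping Gm43292 on the other strand, since the strand setting of the counting is not given in the sources used here.

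Atf6, the sensor that is itself a transcription factor, went the other way. It was at 10.7, 13.1 and 64.6 in control 2-cell and 40.9, 48.8 and 141 in control 4-cell libraries. The light libraries were at 8.38, 14.4 and 26.7 and 16.7, 46.3 and 64.1. The rise was 1.59 (SE 0.54, adjusted p = 0.0203) in control, lost without control 4-cell library 5 (1.36, adjusted p = 0.0605), and 1.33 (SE 0.46, adjusted p = 0.0223) in light libraries; the groups overlapped in both. Atf6 then stayed at 20.9 to 51.8 in control 8-cell libraries, 9.14 to 94.4 in control morulae and 13.7 to 47.7 in control blastocysts. In light libraries it fell from the morula, at 18.3, 31.1 and 48.4, to the blastocyst, at 3.68, 9.23 and 12.4, without overlap, by -1.87 (SE 0.52, adjusted p = 0.0092), and over this step the groups of 2 listed genes in light and 0 in control libraries did not overlap, as for 8.22% and 7.88% of all genes. That call was lost with median ratio scaling, with scaling to the reads outside ribosomal RNA (CPM) and with edgeR.

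Among the transcription factors, Atf4 had a read in every library and its lowest mean in blastocysts, Ddit3 had low levels, and Xbp1 appeared late. Atf4, the effector of the integrated stress response, was at 114, 179 and 275 in control 2-cell, 34.2, 76.2 and 128 in 4-cell, 82.4, 82.5, 38.3 and 55.5 in 8-cell, 25.6, 104 and 195 in morula and 23.7, 36.9 and 20.5 in blastocyst libraries. The light libraries were at 97.0, 151 and 305, 84.3, 140.3 and 231, 20.9, 48.5 and 68.9, 41.2, 66.6 and 110.2 and 5.44, 23.1 and 39.2 over the same stages. The fall thus came between the 2-cell and the 4-cell stage in control libraries and between the 4-cell and the 8-cell stage in light libraries. By limma the first was -1.27 (SE 0.40, adjusted p = 0.013) in control, with overlap, against -0.17 (SE 0.31, adjusted p = 0.697) in light libraries. The second was -0.23 (SE 0.53, adjusted p = 0.837) in control against -1.57 (SE 0.28, adjusted p = 0.000391) in light libraries, where the groups did not overlap, as for 2.20% of all genes. The difference in the light effect itself was not called by limma between these stages (4-cell against 2-cell 1.10 (SE 0.55, adjusted p = 0.245); 8-cell against 4-cell -1.33 (SE 0.58, adjusted p = 0.258)). The first was called with median ratio scaling (1.58, adjusted p = 0.0338) and by DESeq2 (1.41, adjusted p = 0.0284), and the second by DESeq2 (-1.49, adjusted p = 0.0295), so whether the fall came at different steps in the 2 conditions depended on the scaling and the test. The fall to the 8-cell stage in light libraries missed only the 2-fold threshold with median ratio scaling (-0.97, adjusted p = 0.0302), edgeR (-0.96, adjusted p = 0.0318) and DESeq2 (-0.94, adjusted p = 0.00216). That of control libraries to the 4-cell stage was lost with scaling to the reads outside ribosomal RNA (CPM) (-0.92, adjusted p = 0.0526). From the morula to the blastocyst the light libraries fell without overlap (-1.75 (SE 0.45, adjusted p = 0.00474)). This call was lost under the other scalings and edgeR, and with DESeq2 it missed only the 2-fold threshold (-0.97, adjusted p = 0.0336). The control libraries had -1.57 (SE 0.56, adjusted p = 0.0707), and there the fall was called with CPM scaling (-1.45, adjusted p = 0.0475), by DESeq2 (-1.42, adjusted p = 0.0303), in the pooled fit (-1.57, adjusted p = 0.0115) and without control morula library 1 (-1.70, adjusted p = 0.0332).

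Xbp1, the target of IRE1 and a factor for secretory capacity, had a read in 1 of 7 control and 4 of 6 light 2-cell libraries, in 1 of 6 and 3 of 8 4-cell libraries, and in 2 of 4 and 4 of 8 8-cell libraries, with at most 19 reads in any. Where it had none, a count of 0 allows a normalized value between 1.06 and 11.7, depending on the depth of the library. In morulae it was at 0, 0.584 and 69.6 in control, where 7 of 13 had a read, and 0.873, 7.56 and 37.5 in light libraries. All blastocysts held it, at 21.0, 25.0 and 68.1 in control and 6.26, 12.5 and 34.9 in light libraries. No step passed the threshold by limma, and the largest were the morula to blastocyst step in control, 2.94 (SE 1.34, adjusted p = 0.164), and the 8-cell to morula step in light libraries, 2.03 (SE 0.74, adjusted p = 0.0698), which DESeq2 called. The blastocysts held the trophectoderm markers Cdx2, Gata3, Krt8 and others at a summed value of 476 to 6567 in control and 2844 to 7049 in light libraries, and the morulae at 173 to 1705 and 319 to 826; whether the level of Xbp1 followed the cell type of the library was not tested.

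Ddit3, which encodes CHOP and is linked to cell death under lasting stress, had low values throughout. In control libraries they were 0, 9.37 and 25.0 at the 2-cell, 0.852, 5.47 and 26.4 at the 4-cell, 15.7, 1.60, 4.64 and 0.834 at the 8-cell, 1.18, 8.49 and 21.1 at the morula and 0.526, 8.00 and 27.0 at the blastocyst stage. Light libraries were at 6.70, 12.0 and 61.7, 0, 7.29 and 14.6, 0, 1.99 and 12.0, 1.57, 4.37 and 10.0 and 1.60, 6.73 and 14.0. All groups overlapped with the next, no step was called, and the most reads in any library were 42. Ddit3 also overlaps Mars on the other strand, so its few reads could belong to that gene.

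Hspa5, the chaperone BiP, was the most abundant listed gene per exon length at the 4-cell, 8-cell and blastocyst stages in both conditions. Control libraries were at 45.8, 304 and 381 at the 2-cell, 197, 348 and 523 at the 4-cell, 208, 269, 211 and 325 at the 8-cell, 15.9, 56.9 and 153 at the morula and 73.1, 381 and 304 at the blastocyst stage. The lowest stage was the morula, all of whose libraries lay below all 8-cell libraries. Light libraries were at 319, 505 and 1207, 234, 365 and 483, 103, 149 and 406, 49.3, 81.0 and 98.1 and 16.2, 63.1 and 225. They came down stage by stage from the 2-cell stage to the morula. By limma the fall from the 8-cell stage to the morula was -2.17 (SE 0.46, adjusted p = 0.00169) in control and -1.07 (SE 0.31, adjusted p = 0.0221) in light libraries. The light fall missed only the 2-fold threshold with median ratio scaling (-0.94, adjusted p = 0.0302) and with scaling to the reads outside ribosomal RNA (CPM) (-0.93, adjusted p = 0.0325). The same held without light 8-cell library 5 (-0.88, adjusted p = 0.0467) or 6 (-0.95, adjusted p = 0.0469). The light fall was lost in a fit over all 67 libraries (-1.07, adjusted p = 0.158) and without light morula library 1 (-0.94, adjusted p = 0.0513). Light libraries also fell from the 4-cell to the 8-cell stage, -1.09 (SE 0.25, adjusted p = 0.00428), where 3 of 9 listed genes tested were called against 10.6% of all genes. That fall was lost under each other scaling, with edgeR and with DESeq2, in a step where the median of all genes was -0.45. Without light 8-cell library 9 it missed only the 2-fold threshold (-0.997, adjusted p = 0.0109). Hspa5 rose again to the blastocyst in control libraries, 1.88 (SE 0.57, adjusted p = 0.032), the single listed gene of 10 tested that was called there against 11.9% of all genes, but not without control blastocyst library 2 (1.43, adjusted p = 0.276) or 3 (1.59, adjusted p = 0.219). In light libraries the same step gave -0.10 (SE 0.45, adjusted p = 0.903). The light effects at these stages were not shown to differ (blastocyst against morula -1.98 (SE 0.68, adjusted p = 0.114)), but without control blastocyst library 1 this difference was called (-2.72, adjusted p = 0.0332).

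Herpud1, which takes part in ER-associated degradation and is a sensitive target of the unfolded protein response in other cells, had no read in 47 of 67 libraries. None of the 6 light 2-cell libraries had a read, and 1 of 7 control 2-cell libraries did. Values reached 30.0 in control morulae, 4 of 13 of which had a read, and 7.22 in light 8-cell libraries, 2 of 8 of which did. Depth set the floor: in libraries with no read, a count of 0 allows a normalized value between 0.797 and 11.7. Herpud1 passed the filter on low values (above 1 in at least 3 libraries) only between 8-cell and morula libraries, between control morulae and blastocysts, between light and control at the 8-cell and morula stages, and in the contrasts over all 67 libraries. No difference was called in any, and its reads could also come from the overlapping antisense gene Gm15890.

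Both feedback inhibitors fell after the 2-cell stage. Trib3, a pseudokinase induced by ATF4 and CHOP, was at 61.4, 86.1 and 330.1 in control and 43.8, 132 and 210.2 in light 2-cell libraries. At the 4-cell stage it was at 3.93, 17.0 and 48.4 in control and 4.41, 11.0 and 38.0 in light libraries, below every 2-cell library of its condition. The fall was -2.70 (SE 0.58, adjusted p = 0.000614) in control and -3.10 (SE 0.51, adjusted p = 2.12e-05) in light libraries. It was low from there on, with 0, 4.67 and 27.8 in control and 0, 1.54 and 7.85 in light morulae and 0, 0.696 and 1.93 and 0.90, 1.88 and 13.1 in control and light blastocysts. Control 2-cell library 12, at 330.1, and light blastocyst library 15, at 13.1, stood above the rest of their groups.

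Ppp1r15a, which encodes GADD34, was the most abundant listed gene per exon length at the 2-cell stage. It was at 158, 372 and 618 in control and 249, 351 and 806 in light 2-cell libraries. Control libraries were then at 8.52, 49.4 and 103 at the 4-cell, 60.2, 206, 33.7 and 144 at the 8-cell, 3.29, 39.2 and 109 at the morula and 12.1, 15.7 and 15.4 at the blastocyst stage. The 2-cell and 4-cell groups did not overlap in either condition. Light libraries were at 44.1, 124 and 189, 15.9, 43.3 and 65.0, 8.48, 30.5 and 52.3 and 0.961, 9.34 and 17.3 over the later stages. The fall to the 4-cell stage was -3.03 (SE 0.51, adjusted p = 5.3e-05) in control and -1.83 (SE 0.31, adjusted p = 3.56e-05) in light libraries. The control libraries then had 1.12 (SE 0.68, adjusted p = 0.341) to the 8-cell stage, while the light libraries fell by -1.48 (SE 0.32, adjusted p = 0.0023). The light fall was lost under each other scaling and edgeR, and with DESeq2 it missed only the 2-fold threshold (-0.91, adjusted p = 0.0422). From the morula to the blastocyst the light libraries fell by -1.82 (SE 0.59, adjusted p = 0.0253), in a step where 3 of 9 listed genes tested were called against 20.7% of all genes and the median of all genes was -0.45. This call was lost under each other scaling, edgeR and DESeq2, and without light morula library 3 or 6 or light blastocyst library 26 or 29. Reads of Ppp1r15a may include those of Tulp2, which overlaps it on the other strand.

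**Figure D2:**
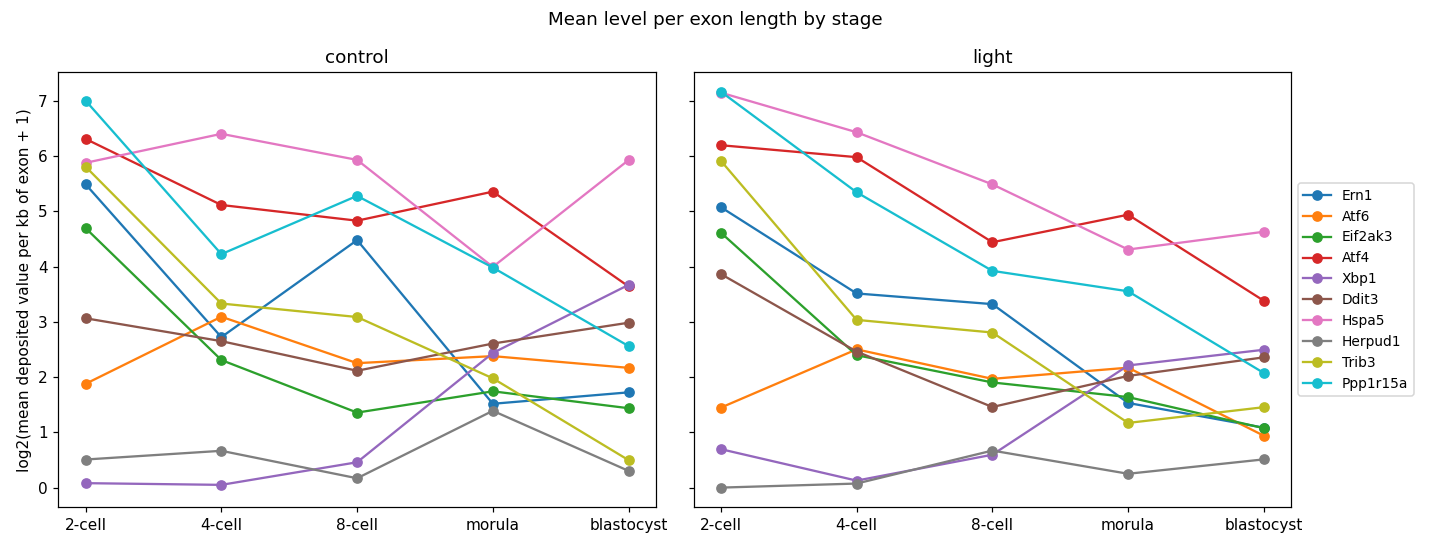
Mean normalized value per kb of exon on a log2 scale (y axis, 1 added) by stage (x axis) for the 10 genes, in control (left) and light libraries (right), with 1 line per gene. Ppp1r15a, Atf4, Hspa5, Trib3 and Ern1 lead at the 2-cell stage and Hspa5 at the 4-cell and 8-cell stages, while Xbp1 climbs from the bottom to the upper ranks.

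Divided by exon length (GENCODE M21), which allows genes to be compared, the mean level at the control 2-cell stage was highest for Ppp1r15a, 127 ± 62.2 per kb (SD, n = 7), followed by Atf4 at 78.3 ± 25.2, Hspa5 at 57.7 ± 30.1, Trib3 at 54.9 ± 44.6, Ern1 at 43.9 ± 10.8 and Eif2ak3 at 24.9 ± 13.1. Neighbours in this order differed by less than the larger of their SDs, other than Ern1 and Eif2ak3. Ddit3 at 7.36 ± 5.75, Atf6 at 2.68 ± 2.12, Herpud1 and Xbp1 made up the low end. At the control blastocyst stage the order had turned over: Hspa5 was at 59.8 ± 37.9 per kb (SD, n = 3), Xbp1 at 11.7 ± 8.03 and Atf4 at 11.5 ± 3.68, with Ppp1r15a down to 4.90 ± 0.677 and Trib3 to 0.411 ± 0.459. In light blastocysts Hspa5 was at 23.7 ± 19.6 (SD, n = 6), Atf4 at 9.41 ± 4.83 and Xbp1 at 4.63 ± 3.36.

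At the 2-cell stage, the stage of exposure, Hspa5 was the single listed gene that differed between light and control, and 4 of 19 other ER folding genes rose with it. Hspa5 was at 45.8, 304 and 381 in the 7 control and 319, 505 and 1207 in the 6 light libraries (lowest, median and highest). All light libraries but the lowest lay above the highest control library, and the lowest control libraries, at 45.8 and 109, lay far below the rest. The log2 fold change was 1.42 (SE 0.39, adjusted p = 0.0174) by limma, with a 95% interval of 0.62 to 2.22. It was 1.19 (adjusted p = 0.024) by edgeR and 1.26 (adjusted p = 0.0153) by DESeq2, where 11.7% and 14.8% of all genes were called. Without light 2-cell library 14, at 1207, it was 1.18 (adjusted p = 0.0647), and with no filter on low values the adjusted p was 0.0527. Of the 9 listed genes tested 1 was called, against 10.5% of all genes tested (5.53% higher), and the groups of 0 of the 10 did not overlap, against 4.15% of all genes.

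Beside this result, the summed value of 10 oocyte markers, such as Gdf9, Bmp15 and Zp3, all detected in both groups, was 2884 to 5881 in control and 821 to 2468 in light libraries and did not overlap, and the ratio of the ribosomal RNA genes given above did not overlap either. Their part in the level of Hspa5 was not tested. Cumulus cell markers were at a summed value of 0 to 6.90 in control and 3.89 to 54.6 in light libraries, with 4 and 3 of the 5 markers in the table holding a read.

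The other listed genes at the 2-cell stage had no called difference. Ern1 was at -0.43 (95% interval -1.0 to 0.13), Atf6 at -0.40 (-1.66 to 0.86) and Eif2ak3 at -0.03 (-0.93 to 0.86). Atf4 was at -0.17 (-0.85 to 0.52), Trib3 at 0.15 (-0.71 to 1.01) and Ppp1r15a at 0.21 (-0.45 to 0.87). Ddit3, at 0.91 (-0.73 to 2.54), and Xbp1, at 1.05 (-0.06 to 2.16), had wide intervals on few reads.

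In the wider lists of the pathway, 4 of 19 ER chaperones and folding enzymes were higher in light 2-cell libraries and 0 lower by limma, where 5.53% of all genes tested were called higher. By edgeR 4 were higher and 1, Txndc5, lower, where 11.7% of all genes were called in either direction. Pdia3, a disulfide isomerase of glycoproteins, was at 73.8 to 296 in control and 397 to 873 in light libraries, 1.68 (SE 0.33, adjusted p = 0.00105). Dnajb11, a co-chaperone of BiP, was at 34.4 to 99.3 and 113 to 268, 1.61 (SE 0.37, adjusted p = 0.00392). Dnajb9, another BiP co-chaperone, was at 148 to 675 and 855 to 1809.9, 1.47 (SE 0.29, adjusted p = 0.0011). None of these 3 overlapped between the groups, which held for 4.15% of all genes tested. The median log2 fold change of the list was 0.61 beside 0.00 over all genes tested, while Hyou1, Hsp90b1, Calr, Ppib, Ero1lb and Txndc5 lay below 0 without a call by limma.

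**Figure D3:**
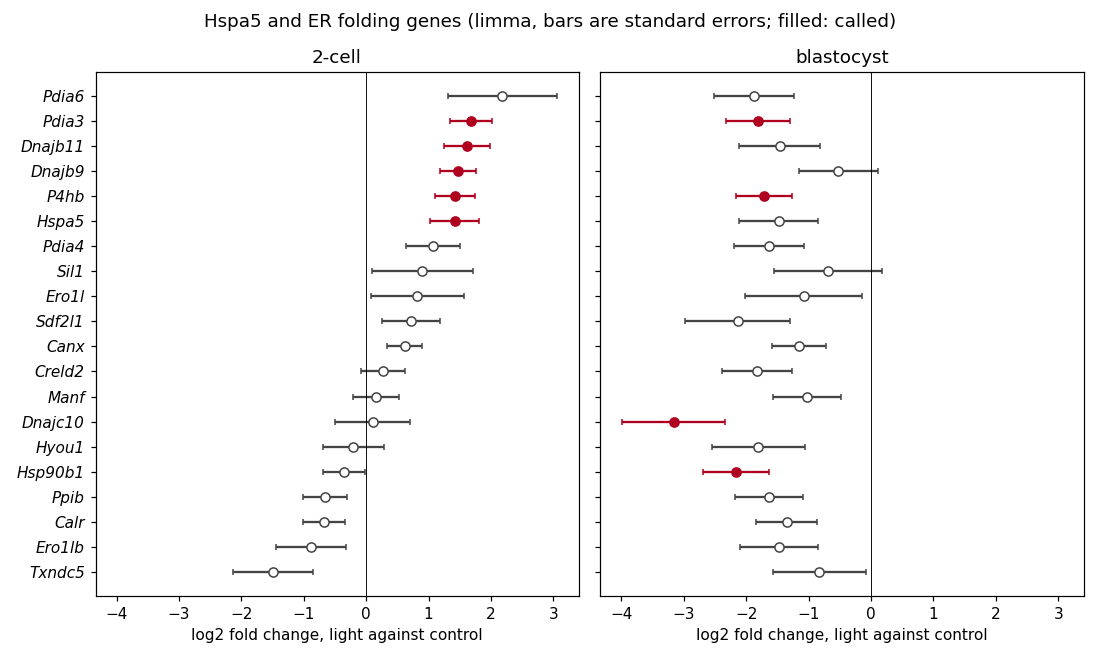
Log2 fold change of light against control (x axis, limma; bars are standard errors) for Hspa5 and the 19 ER chaperones and folding enzymes (y axis) at the 2-cell stage (left, 6 light and 7 control libraries) and the blastocyst stage (right, 6 and 3); filled red points are called. Hspa5, Pdia3, Dnajb11, Dnajb9 and P4hb are called higher at the 2-cell stage, and all points lie below 0 at the blastocyst stage, where the median of all genes was -0.64.

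Among 13 eIF2 kinases and eIF2 factors tested in 2-cell libraries, 4 were called higher in light and 0 lower by limma. By edgeR 2 were called higher and by DESeq2 3, with 0 lower by either. The eIF2 subunit Eif2s1 went from 46.9 to 259.6 to 209.8 to 635, 1.64 (SE 0.38, adjusted p = 0.00448), the subunit Eif2s3x had 1.57 (SE 0.36, adjusted p = 0.00454) and the exchange factor subunit Eif2b4 1.31 (SE 0.44, adjusted p = 0.0482). Of 19 genes of ER-associated degradation 2 were higher and 0 lower: the extraction ATPase Vcp, 1.65 (SE 0.37, adjusted p = 0.00361), and Selenos, 1.30 (SE 0.36, adjusted p = 0.018). Of 35 ATF4 and CHOP targets tested 3 were higher and 2 lower, among them the serine synthesis enzyme Phgdh at 0 to 78.3 in control and 38.9 to 508 in light libraries (4.43 (SE 0.84, adjusted p = 0.00077)), the asparaginyl-tRNA synthetase Nars (1.73 (SE 0.42, adjusted p = 0.00652)) and the glycine transporter Slc6a9 (-1.80 (SE 0.39, adjusted p = 0.00232)). None of the 9 sensors and processing enzymes of the wider list was called by limma or edgeR, while DESeq2 called 1 higher. The share called over all 95 wider genes tested was 15.8% by limma, 14.7% by edgeR and 20% by DESeq2. Of all genes, 10.5%, 11.7% and 14.8% were called.

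**Figure D4:**
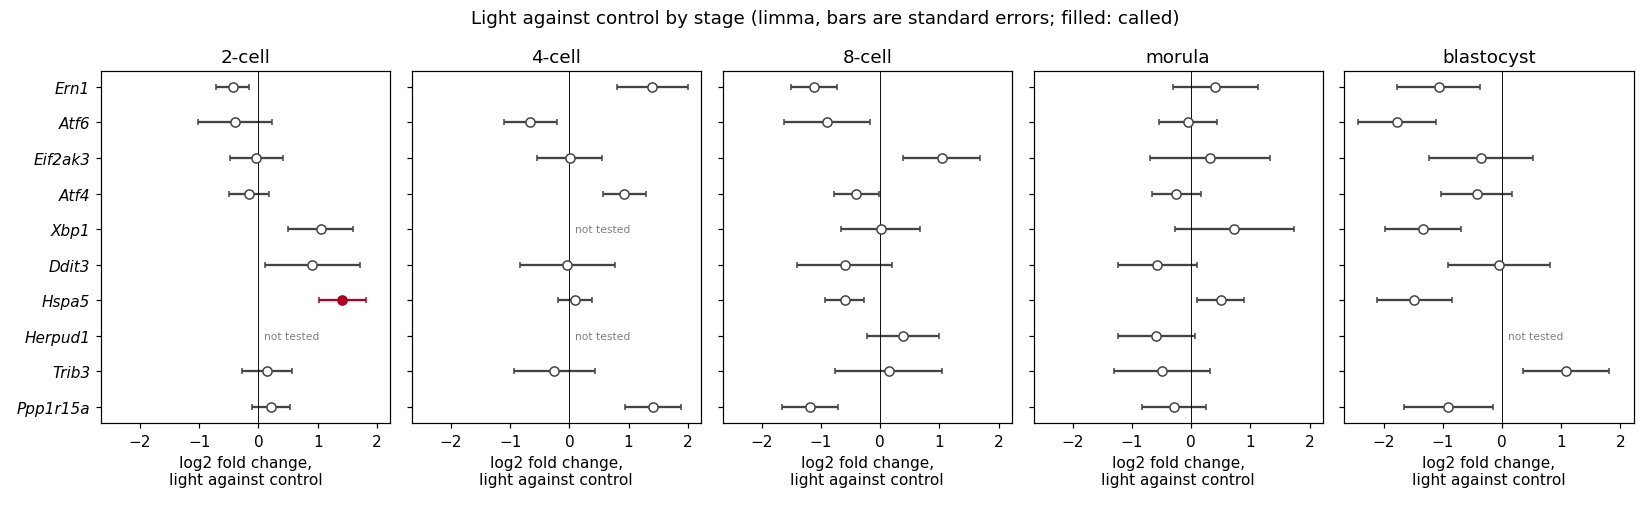
Log2 fold change of light against control (x axis, limma; bars are standard errors) for the 10 genes (y axis) at each of the 5 stages (panels); filled red points are called, and genes under the filter on low values are marked as not tested. Hspa5 at the 2-cell stage is the single filled point, Ern1 and Ppp1r15a lie to the right at the 4-cell and to the left at the 8-cell stage, and most genes lie to the left at the blastocyst stage.

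At the 4-cell stage 0 of 8 listed genes tested were called (Xbp1 and Herpud1 were under the filter) by limma, edgeR or DESeq2, against 1.45% of all genes by limma, and 3 had an unadjusted p under 0.05. These were Ppp1r15a, Atf4 and Ern1, each higher in light libraries. Ppp1r15a was at 8.52, 49.4 and 103 in control and 44.1, 124 and 189 in light libraries, 1.41 (SE 0.47, adjusted p = 0.118). Its highest control library was control 4-cell library 3, 1 of the 4 nearer the light group. Without it the change by limma was 1.68 (adjusted p = 0.0387) and passed, as did 5.20% of all genes then. That library was picked for its nearness to the light group, so leaving it out favours a difference and the call adds no support for one. Ern1 was at 0.852, 49.6 and 77.2 in control and 38.1, 78.4 and 130.1 in light libraries, 1.40 (SE 0.60, adjusted p = 0.219), with control library 1 at 0.852 on a single read, without which the change was 0.59 (adjusted p = 0.466). Atf4 was at 34.2, 76.2 and 128 in control and 84.3, 140.3 and 231 in light libraries, 0.93 (SE 0.36, adjusted p = 0.178). The groups of all 3 overlapped, as did those of the other listed genes, while 0.560% of all genes did not. Hspa5 was at 0.10 (95% interval -0.49 to 0.69), and Atf6, Eif2ak3, Ddit3 and Trib3 lay between -0.66 and 0.01. Among the ATF4 and CHOP targets of the wider lists, the glycyl-tRNA synthetase Gars was called higher, at 36.6 to 175 in control and 105 to 355 in light libraries (1.62 (SE 0.41, adjusted p = 0.0418)).

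At the 8-cell stage Ern1 and Ppp1r15a lay lower in light libraries. Whether Ern1 was called depended on the scaling, the test and single libraries, and whether Ppp1r15a was called depended on the test and a single library. By limma 0 of 10 listed genes were called, against 9.21% of all genes tested, and 2 had an unadjusted p under 0.05; edgeR and DESeq2 each called 2, both lower, among 6.41% and 10.2% of all genes. Ern1 was at 274, 95.3, 81.3 and 245 in the control libraries and 35.2, 70.1 and 112 (lowest, median and highest) in the light libraries, -1.12 (SE 0.38, adjusted p = 0.0654). It was -1.29 (adjusted p = 0.0245) with median ratio scaling, -1.34 (adjusted p = 0.0204) by edgeR and -1.42 (adjusted p = 0.00254) by DESeq2. Without control library 3 it was also called by limma (-1.42, adjusted p = 0.0337), as it was without control library 2 (-1.34, adjusted p = 0.0483). Ppp1r15a was at 60.2, 206, 33.7 and 144 in control and 15.9, 43.3 and 65.0 in light libraries, -1.19 (SE 0.47, adjusted p = 0.111), and -1.47 (adjusted p = 0.0344) by edgeR, -1.53 (adjusted p = 0.00723) by DESeq2 and -1.64 (adjusted p = 0.0357) by limma without control library 3. The groups overlapped for both genes, as for the other 8, while 5.61% of all genes had none, and the 4 control libraries fell into a higher and a lower pair for each, though not the same pair. Beside these values, the summed level of 9 markers of the 2-cell embryo, all with a read in both groups, was 92.2 to 506 (median 243) in control and 2.85 to 140.2 (median 48.7) in light 8-cell libraries, and 14.7 to 94.6 in control 4-cell libraries, where 7 of the 9 had a read and Zscan4c and Zscan4f were at 0. The 10 oocyte markers summed to 137 to 238 in control and 44.7 to 166 in light 8-cell libraries. Their part in the levels of Ern1 and Ppp1r15a was not tested. Hspa5 was at -0.60 (SE 0.33, adjusted p = 0.267), Atf4 at -0.40 (SE 0.39, adjusted p = 0.552) and Eif2ak3 at 1.04 (SE 0.65, adjusted p = 0.329).

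Of the 88 wider genes tested at this stage, 9 were called higher and 1 lower by limma. Of 13 eIF2 genes 3 were higher and 0 lower, with Eif2b1 at 61.5 to 149 in control and 101 to 354 in light libraries (1.44 (SE 0.32, adjusted p = 0.00522)), Eif2b3 at 1.26 (SE 0.37, adjusted p = 0.0307) and Eif2s1 at 1.01 (SE 0.24, adjusted p = 0.0097). Of 30 ATF4 and CHOP targets tested 4 were higher and 1 lower. The asparagine synthetase Asns was at 0 to 1.16 in control and 8.93 to 42.8 in light libraries (3.57 (SE 0.69, adjusted p = 0.002)), the seryl-tRNA synthetase Sars had 2.85 (SE 0.76, adjusted p = 0.0182) and the death receptor Tnfrsf10b 2.73 (SE 0.68, adjusted p = 0.012). The ligase Rtcb, which joins the spliced Xbp1 ends, was at 1.54 (SE 0.45, adjusted p = 0.0307), and Aup1 of ER-associated degradation at 2.01 (SE 0.65, adjusted p = 0.049). No ER chaperone of 19 was called by limma or edgeR. By edgeR only 2 of the 88 wider genes tested were called, against 10 by limma, 11.4% of those tested beside 9.21% of all genes.

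At the morula stage, with the most control libraries, no listed gene of 10 was called by limma, edgeR or DESeq2, against 1.18% of all genes by limma, and none had an unadjusted p under 0.05 in any of the 3. The groups of all 10 overlapped, while those of 0.552% of all genes did not. Hspa5 was at 15.9, 56.9 and 153 in control and 49.3, 81.0 and 98.1 in light libraries, 0.50 (SE 0.40, adjusted p = 0.584), with a 95% interval of -0.32 to 1.32. Atf6 was at -0.05 (-1.04 to 0.94), Atf4 at -0.25 (-1.09 to 0.59) and Ppp1r15a at -0.29 (-1.40 to 0.82). The intervals of all 10 genes held a 2-fold change in at least 1 direction, so that a change of that size in that direction was not excluded. Of the wider lists 1 of 94 genes tested was called, the alanine aminotransferase Gpt2 at 0 to 8.95 in control and 6.32 to 20.5 in light libraries (2.83 (SE 0.71, adjusted p = 0.0388)).

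At the blastocyst stage most of the listed genes and of the wider lists were lower in light libraries on the deposited scale, where the median of all genes tested was itself -0.64, against -0.10 with median ratio scaling. No listed gene of 9 tested was called by limma (5.34% of all genes), edgeR or DESeq2, and 3 had an unadjusted p under 0.05 by limma, 0 by edgeR and 2 by DESeq2. Atf6 was at 13.7, 47.7 and 35.3 in the 3 control libraries and 3.68, 9.23 and 12.4 in the 6 light libraries, -1.78 (SE 0.66, adjusted p = 0.114). The groups did not overlap, as for 12.5% of all genes tested at this stage. Hspa5 was at 73.1, 381 and 304 in control and 16.2, 63.1 and 225 in light libraries, -1.48 (SE 0.63, adjusted p = 0.162). It passed without control blastocyst library 1, the lowest of its group (-2.22, adjusted p = 0.0378). Xbp1 was at 21.0, 25.0 and 68.1 in control and 6.26, 12.5 and 34.9 in light libraries, -1.33 (SE 0.64, adjusted p = 0.213), and Trib3 alone lay above 0, 1.08 (SE 0.72, adjusted p = 0.373).

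Of the 19 ER chaperones and folding enzymes 4 were lower and 0 higher in light blastocysts by limma, where 5.34% of all genes tested were called in either direction. Among the 4 were Dnajc10 (-3.16 (SE 0.82, adjusted p = 0.0279)), Hsp90b1 (-2.17 (SE 0.53, adjusted p = 0.0211)) and Pdia3 (-1.81 (SE 0.52, adjusted p = 0.0427)), and the list's median was -1.63. The site-1 protease Mbtps1, which cuts ATF6, was at 60.5 to 87.3 in control and 8.10 to 21.7 in light libraries (-2.40 (SE 0.53, adjusted p = 0.0135)), and Eif2s3x had -1.34 (SE 0.38, adjusted p = 0.0399). Of 31 ATF4 and CHOP targets tested 3 were lower, Aldh1l2 (-2.59 (SE 0.63, adjusted p = 0.021)), Slc3a2 (-1.81 (SE 0.49, adjusted p = 0.032)) and Tars (-1.68 (SE 0.44, adjusted p = 0.028)). Of the 9 wider genes called lower on the deposited scale, 0 were called with median ratio scaling, 0 with CPM scaling and 1 by edgeR, where DESeq2 called 2 wider genes lower. In the other direction DESeq2 called 2 ATF4 and CHOP targets higher and CPM scaling 1, and the median of that list went from -0.45 to 0.12 with median ratio scaling and 0.22 with CPM scaling. The median of the ER chaperones and folding enzymes stayed below 0, at -0.99 with median ratio scaling and -0.89 with CPM scaling. That of all genes tested was then -0.10 and -0.02. Beside these, 8 inner cell mass markers such as Nanog and Sox2 had a summed value of 301 to 2195 in control and 144 to 207 in light blastocysts, which did not overlap, and all 8 held a read in both groups. The study's methods describe single cells while the labels number embryos, and whether the cell type of a library had a part in these values was not tested.

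The light effect differed between neighbouring stages for 1 listed gene, Ppp1r15a, which lay higher in light libraries at the 4-cell stage and lower at the 8-cell stage. The difference of the light effects, 8-cell minus 4-cell, was -2.60 (SE 0.77, adjusted p = 0.0472) by the interaction contrast in limma over all 67 libraries, against 2.51% of genes called. It was called by edgeR and DESeq2 too, among 4.59% and 4.54% of genes, was lost with a pseudocount of 0.1 or no filter on low values, and was lost without 1 library in 17 of 26 cases. Among these 17 were control 4-cell library 1 (-2.45, adjusted p = 0.0754 by limma) and library 2 (-2.18, adjusted p = 0.107), which stood apart in their ribosomal RNA ratio. Ern1 took the same course, -2.52 (SE 0.87, adjusted p = 0.11), and was called by DESeq2. From the 2-cell to the 4-cell stage 0 of 10 listed genes were called (6.36% of all genes), with 2 at an unadjusted p under 0.05: Ern1, 1.83 (SE 0.83, adjusted p = 0.187), and Hspa5, -1.32 (SE 0.61, adjusted p = 0.203). Hence the rise of Hspa5 in light libraries was not shown to be particular to the 2-cell stage. From the 8-cell stage to the morula 0 were called (1.65% of all genes) and 0 had an unadjusted p under 0.05 by limma, 3 by edgeR and 2 by DESeq2. From the morula to the blastocyst 0 were called (1.82% of all genes) by limma, edgeR or DESeq2, with 2 at an unadjusted p under 0.05 by limma.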

How the data were processed

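Libraries were made by SMART-seq2 from polyadenylated RNA. Per the labels, the authors used HISAT2, HTSeq 0.9.1 and the mm9 build. The deposited signal values are the authors' reads per gene divided by a size factor of each library: the study's methods describe RPKM, but multiplied by that factor at least 99.95% of the values above 0 in each library were whole reads (tolerance 0.01), with 11 genes holding a value that was not whole, and no division by length was found. Nothing in the sources used here states whether counting used strand. The design assumed normalized values and was kept.

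Groups came from the titles. R 4.3.3 and limma 3.58.1, with a trend in the eBayes step, were applied to log2(value + 1). Genes had to exceed 1 in 3 or more of the compared libraries, p was adjusted by Benjamini-Hochberg over all genes tested, and a call needed both an adjusted p under 0.05 and a 2-fold or larger change. Light was compared with control at each stage, neighbouring stages within each condition, and light effects between neighbouring stages by interaction contrasts over all 67 libraries. The light against control fits by limma, edgeR and DESeq2 were tested on simulated data. The stage steps, the interaction contrasts and the other scalings were not.

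Alternatives were a pseudocount of 0.1, no filter, a filter on a mean above 5, median ratio scaling, CPM outside the 2 ribosomal RNA genes, edgeR 4.0.16 (quasi-likelihood test) and DESeq2 1.42.0 on the recovered reads, a fit over other sets of groups (pooled), the embryo number as a block, and leaving out each library. Replicate numbers did not pair the libraries: deviations of 29 same-numbered pairs in 9 comparisons correlated at -0.0873 to 0.0695.

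The 10 genes were named in every comparison, with up to 3 called genes of the largest absolute log2 fold change in each wider list and light comparison, and for each of the 10 the 3 genes of most similar pattern. The genes and lists were chosen with earlier results of these data known. The wider lists held 98 genes of the table, whose sizes are 9 sensors and processing enzymes, 14 eIF2 genes, 19 ER chaperones and folding enzymes, 19 genes of ER-associated degradation, and 37 ATF4 and CHOP targets (38 listed). Exon lengths and coordinates came from GENCODE M21 (GRCm38), promoters from RefSeq. Intervals and floors (3 reads) cover counting error only where they rest on reads, and reads carried no molecular identifiers. A single called gene of the wider lists is not reported here.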

Additional observations from a re-analysis of the deposited data

Results flagged for a closer look

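In 79 groups of 4 to 10 libraries with a spread, 12 had 1 library whose gap to its nearest neighbour was large for the range of the group by Dixon's test at the 95% level. Chance gives this in about 1 in 20 groups of normally spread values. A group with reads in a single library is always flagged, so the count cannot be set against that rate. Several rest on 1 or 2 reads. Ern1 in control 4-cell library 1 was at 0.852 (1 read), while the other 5 were at 40.0 to 77.2. Eif2ak3 in control 2-cell library 9 was at 26.9 (39 reads), with the others at 119.7 to 289.6. Atf4 in light 8-cell library 11 was at 20.9 (21 reads), with the others at 41.4 to 68.9.

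Xbp1 stood apart in control 2-cell library 12 at 1.30 and control 4-cell library 5 at 0.683, each on 1 read with the others at 0, in light 4-cell library 13 at 1.47 on 2 reads, and in light 8-cell library 12 at 9.47 on 19 reads, with the others at up to 1.99. Herpud1 stood apart in control 2-cell library 9 at 6.90 and control 4-cell library 6 at 8.21, each on 10 reads, and in control 8-cell library 3 at 1.16 on 1 read, with the others of those groups at 0. Trib3 was at 330.1 (253 reads) in control 2-cell library 12, with the others at 61.4 to 92.8, and at 13.1 (25 reads) in light blastocyst library 15, with the others at 0.90 to 2.85.

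The light effect on Ppp1r15a differed between the 8-cell and the 4-cell stage by -2.60 (limma interaction contrast, adjusted p = 0.0472), being 1.41 in 4-cell and -1.19 in 8-cell libraries.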

How the results depend on the processing

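Of 4143 results of single genes under alternatives, 3978 kept direction and call, 76 lost the call, 31 gained it, 58 were uncalled and moved by over 1 residual SD, and 0 reversed. Counts of listed genes called changed as follows, and of 17 counts 6 held within 1.5 times under every alternative other than leaving out a library; the cause was not tested. Light against control gave 0 at the 2-cell stage with no filter, and at the 8-cell stage 1 with median ratio scaling, 1 with CPM outside ribosomal RNA, 2 by edgeR and 2 by DESeq2. The control 4-cell to 8-cell step gave 1 with median ratio scaling, CPM, edgeR, DESeq2 and the pooled fit, and the control morula to blastocyst step 2 with CPM, 2 by DESeq2 and 3 in the pooled fit. In light libraries the 4-cell to 8-cell step gave 0 with median ratio scaling, edgeR and DESeq2 and 1 with CPM and the pooled fit, the 8-cell to morula step 1 with median ratio scaling, CPM and the pooled fit, and the morula to blastocyst step 0 with median ratio scaling, CPM and edgeR and 1 by DESeq2. The light effect 4-cell minus 2-cell gave 1 with median ratio scaling and DESeq2, and 8-cell minus 4-cell gave 0 with a pseudocount of 0.1 or no filter and 3 by DESeq2. Leaving out 1 library gave, for light against control, 0 to 1 at the 2-cell, 0 to 1 at the 4-cell, 0 to 2 at the 8-cell, 0 to 0 at the morula and 0 to 1 at the blastocyst stage. For the 4 steps in order it gave 5 to 6, 0 to 0, 2 to 2 and 0 to 2 in control and 5 to 5, 2 to 3, 1 to 3 and 2 to 3 in light libraries, and for the 4 differences of light effects 0 to 0, 0 to 1, 0 to 0 and 0 to 1.

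The embryo numbers are shared only as numbers. With the replicate block the counts were 0 for light against control at the 2-cell stage (Hspa5 2.11, adjusted p = 0.125), 0 for the control 8-cell to morula and morula to blastocyst steps, 0 for the light 2-cell to 4-cell, 4-cell to 8-cell and 8-cell to morula steps, and 0 for the light effect 8-cell minus 4-cell. The block leaves few libraries with a shared number, and it could not be fitted where the groups share fewer than 2 numbers (light against control at the 8-cell and blastocyst stages, control 2-cell to 4-cell, light morula to blastocyst). Depth limits Xbp1 before the morula, Ddit3 and Herpud1, where most values rest on few reads.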

Other observations

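Over the 67 libraries, the genes whose pattern was most like that of each listed gene were ranked among 9270 genes by Spearman correlation of log2(normalized value + 1). The libraries share stage, light group and depth, so the values are descriptions. Hspa5 was most like Pdia3 (rho 0.831) and P4hb (0.827), both protein disulfide isomerases of the ER, and Ilf2 (0.808). On CPM outside ribosomal RNA these were 0.692, 0.723 and 0.674. Ern1 was most like Elk4 (0.878), Spin1 (0.870) and Brdt (0.868), and Ppp1r15a like Usp19 (0.860), Tmem92 (0.840) and Mbd3l2 (0.836). Atf4 was most like Zc3h15 (0.801), Brd2 (0.788) and Phf3 (0.775), which were 0.529, 0.570 and 0.518 on the CPM scale. Trib3 was most like Mkrn2 (0.774), Nav2 (0.773) and Tubg2 (0.770), and Eif2ak3 like Rnf24 (0.766), Borcs5 (0.766) and Fam222b (0.765). The low genes had weaker matches: Xbp1 with Camk2d (0.652), Sdhd (0.583) and Ppp2r1a (0.581), Atf6 with Dhx15 (0.621), Fbxo15 (0.591) and Arih2 (0.586), Ddit3 with Sgo2a (0.556), Calm2 (0.545) and the ER chaperone Calr (0.539), and Herpud1 with Igbp1 (0.451), Sdhd (0.448) and Vps53 (0.429).

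Among the 10 genes themselves, over the same 67 libraries, Ern1 and Ppp1r15a had the highest correlation (rho 0.804), followed by Trib3 and Ppp1r15a (0.726) and Atf4 and Ppp1r15a (0.715). Xbp1 ran against the early genes, with -0.468 for Ppp1r15a, -0.447 for Ern1 and -0.445 for Atf4. Ern1, the sensor, and Xbp1, its target, were thus high at opposite ends of the 5 stages.

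The promoter search found ERSE matches also in Hsp90b1, at -212 to -194 and on the other strand at -107 to -89, a gene that did not pass the threshold at the 2-cell stage and was lower in light blastocysts on the deposited scale. Of the other genes named in the comparisons, Vcp held TGACGTGG at -114 to -107, and Eif2s3x, Gars, Asns and Tars held the ATF4 core.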
